A study of Mus musculus with 10 samples.

Results

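The colony-stimulating factors are secreted proteins, and with their receptors they were represented here by 9 genes, Csf1, Il34, Csf1r, Csf2, Csf2ra, Csf2rb, Csf2rb2, Csf3 and Csf3r. They were found as the probe sets paired with only that gene symbol in the platform annotation, and each of the 9 had 1 probe set, out of 19938 genes on the array. Levels were measured in 10 mouse melanoma tumours, 5 of the Exercise group and 5 of the non-Exercise group, with 1 whole-transcript Affymetrix array per tumour. The series title speaks of voluntary exercise, while the labels used here give no strain, age, tumour cell line or form of running. All 10 tumours are labelled as coming from males, and the labels do not state that each array came from a different mouse. The p-values therefore measure spread among these tumours, which may be technical. The comparison asks which of these transcripts differed between tumours of exercised and non-exercised mice.

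CSF1 (M-CSF) and IL-34 both bind the receptor tyrosine kinase CSF1R, which macrophages and their precursors need for survival and growth. GM-CSF, encoded by Csf2, signals through a specific alpha chain (Csf2ra) and the common beta chain (Csf2rb), which interleukin-3 and interleukin-5 also use, and mice carry in Csf2rb2 an additional beta chain that serves interleukin-3. G-CSF, encoded by Csf3, acts on Csf3r and drives the production and release of neutrophils. In tumours these factors are made by cancer cells, fibroblasts, endothelium and lymphocytes, while the receptors sit mostly on myeloid cells.

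The array reads transcripts and not these DNA regions, so the promoters are printed as context for genes that rose, with the part before the RefSeq start site of the gene in build GRCm38.p6. Promoter windows were read for 5 of the 9 genes (Csf1, Csf2, Csf2ra, Csf2rb2 and Csf3r), and those of the other genes were not examined. The 3 shown are that of Csf1, the ligand that rose, and those of the receptor genes Csf2rb2 and Csf3r, which held a match to the core of the site bound by PU.1, a transcription factor of the myeloid lineage encoded by Spi1. They lie on the minus strand at chr3:107760470-107760719 for Csf1, on the minus strand at chr15:78305722-78305971 for Csf2rb2 and on the plus strand at chr4:126024409-126024658 for Csf3r. The Csf3r window lies inside the annotated span of the gene. Capitals mark the PU.1 core, read on both strands.
Csf1: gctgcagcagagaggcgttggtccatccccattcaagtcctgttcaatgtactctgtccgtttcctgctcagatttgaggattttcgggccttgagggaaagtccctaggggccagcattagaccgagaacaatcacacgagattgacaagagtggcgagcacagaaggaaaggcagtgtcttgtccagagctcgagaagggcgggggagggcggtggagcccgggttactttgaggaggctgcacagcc
Csf2rb2: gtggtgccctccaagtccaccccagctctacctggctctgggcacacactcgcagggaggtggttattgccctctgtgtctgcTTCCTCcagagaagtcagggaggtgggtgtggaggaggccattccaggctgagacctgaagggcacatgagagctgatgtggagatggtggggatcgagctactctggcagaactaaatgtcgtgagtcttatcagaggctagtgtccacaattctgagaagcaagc
Csf3r: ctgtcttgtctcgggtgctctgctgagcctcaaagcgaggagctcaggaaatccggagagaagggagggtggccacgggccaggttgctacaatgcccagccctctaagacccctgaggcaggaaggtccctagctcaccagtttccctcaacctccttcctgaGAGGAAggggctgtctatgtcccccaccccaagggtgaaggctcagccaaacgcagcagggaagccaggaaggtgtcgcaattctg
The core GAGGAA or its reverse complement began 167 bases before the start in Csf2rb2 and 86 bases before it in Csf3r. It was found in 23.3% of 32851 mouse promoter windows of 250 bases. The C/EBP pattern TTGCNNAA, present in 9.56% of the windows, occurred in that of Csf2, 145 bases before the start, and the AP-1 pattern TGANTCA, present in 6.75%, in none of the 5. No pair of these patterns overlapped in the 5 windows, and the Csf2ra window, shortened to 207 bases because a longer transcript begins nearby, held none of them.

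All values below are log2 levels after quantile normalization of the deposited values, and every change is Exercise minus non-Exercise, with its standard error (SE) after ±. A gene was said to rise or fall where its limma p, adjusted by the Benjamini-Hochberg method over the 19938 genes, was under 0.05. Array medians lay between 8.64 and 8.77 as deposited. Across genes, the correlation of 2 Exercise arrays was 0.976 to 0.990, that of 2 non-Exercise arrays 0.987 to 0.996, and that of an Exercise with a non-Exercise array 0.960 to 0.991. Levels of different genes cannot be set against each other on an array, and the number of arrays limits the precision.

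Several arrays stood apart from the rest or from their labels. Melanocytic markers were bright in all tumours, with a mean level over 8 genes (led by Dct, Slc45a2 and Tyrp1) of 13.00 to 13.11 in Exercise arrays and 13.00 to 13.12 in non-Exercise arrays, and 0 of 8 rose or fell, with 2 lower at an unadjusted limma p under 0.05. Exercise arrays 306, 309 and 310 held transcripts of hepatocytes, with Alb (albumin) at 12.28 to 12.97 in these arrays and at 6.84 to 9.22 in the other 7. Transcripts of skeletal muscle also set Exercise arrays apart, with the mean centred level of 7 markers at 1.21 and 1.6 in arrays 306 and 309, at -1.25 and -1.24 in arrays 301 and 310, at 0.63 in array 300 and at -0.67 to 0.21 in the non-Exercise arrays. That of 7 adipocyte markers was 1.11 in array 310, -0.67 in array 301 and -0.58 to 0.54 in the other 8 arrays, and 0 of 7 genes of either list rose or fell, with 1 adipocyte gene (Lpl, 0.97) and 0 muscle genes higher at an unadjusted limma p under 0.05. Exercise array 301 stood apart in Xist, the RNA of the inactive X chromosome, at 7.20, while the other 9 arrays lay between 9.50 and 11.72 although all were labelled male. The Y-linked genes Kdm5d, Eif2s3y and Uty had changes of 0.10, -0.10 and -0.03 and did not pass. They stood at percentiles 52.5, 12.1 and 3.68 of mean level among all genes, and the sex of the mice was not settled. What these signals contribute to the levels below was not tested, and the change of each gene that rose is also given without Exercise arrays 306, 309 and 310.

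Of the 9 genes 6 rose in Exercise tumours, 0 fell and 3 did not pass, while 6.35% of all genes rose (1266) and 10.6% fell (2118). With arrays centred on their medians in place of quantiles, 938 of all genes rose and 3076 fell. All 5 receptor genes rose, and of the 4 ligand genes Csf1 alone did. The median log2 change was 0.72 over the 9 genes and -0.02 over all genes tested. The Exercise arrays lay entirely above the non-Exercise arrays for 4 of the 9 genes, Csf1, Csf2rb, Csf2rb2 and Csf3r, against 3.74% of all genes, and entirely below for none, against 8.33%. Of the 9, 1 gene was lower at an unadjusted limma p under 0.05, and 1 by the exact permutation test, in both cases Csf2. The count of 6 was 6 without Exercise array 301 and 4 without Exercise arrays 306, 309 and 310, with Csf1r and Csf2ra the genes that no longer passed.

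**Figure D1:**
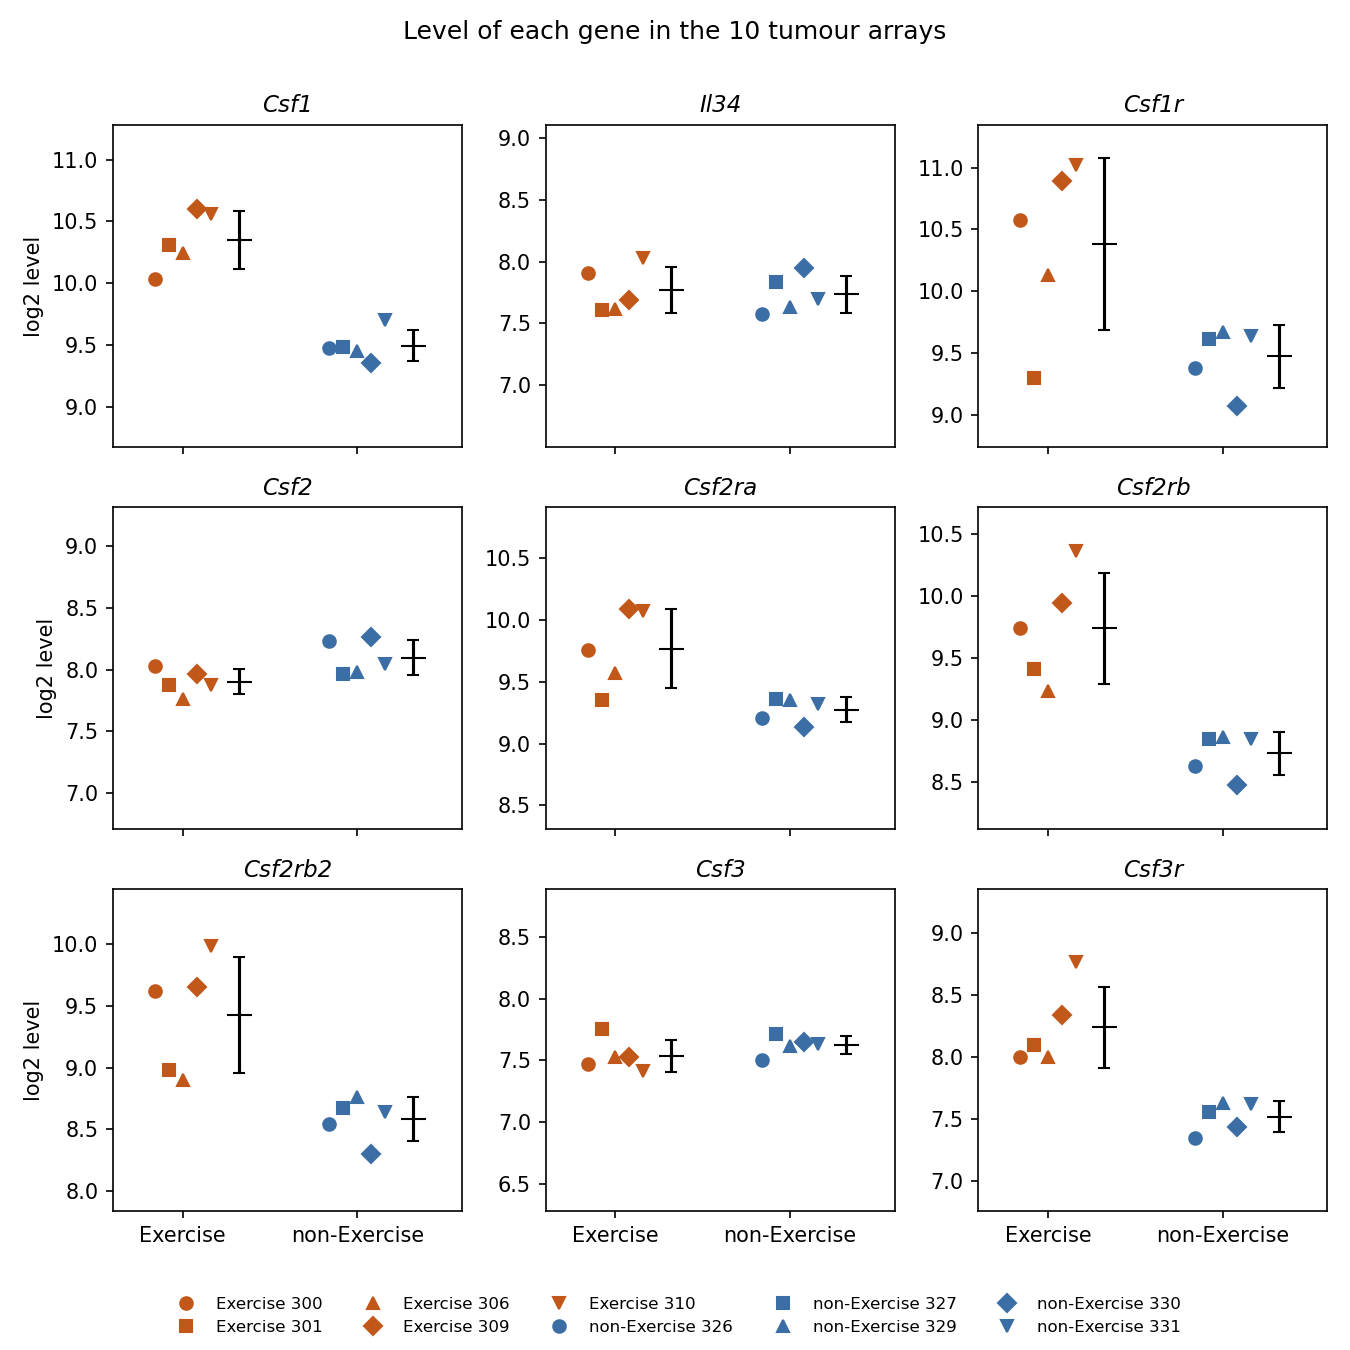
Log2 level of each of the 9 genes in the 5 Exercise arrays (orange, left) and the 5 non-Exercise arrays (blue, right), with 1 symbol per array and the mean ± SD in black; every panel spans the same number of log2 units. The groups are fully separated for Csf1, Csf2rb, Csf2rb2 and Csf3r, Exercise array 301 sits among the non-Exercise values for Csf1r, and Il34, Csf2 and Csf3 overlap.

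Csf1, the ligand that sustains macrophages, was 1.81-fold higher in Exercise tumours (95% interval 1.55 to 2.11). Its log2 level was 10.03, 10.31, 10.24, 10.60 and 10.56 in Exercise arrays 300, 301, 306, 309 and 310, against 9.48, 9.49, 9.45, 9.36 and 9.71 in non-Exercise arrays 326, 327, 329, 330 and 331. Every Exercise array lay above every non-Exercise array, and the lowest of them, array 300, was 1 of the 2 that lacked the hepatocyte transcripts. The means were 10.35 ± 0.23 and 9.50 ± 0.13 (SD, n = 5 each), and the log2 difference was 0.85 ± 0.10 (limma adjusted p = 0.000218). Leaving out each array in turn gave 0.79 to 0.93 (limma adjusted p 0.000226 to 0.00120), and leaving out Exercise arrays 306, 309 and 310 gave 0.68 (limma adjusted p = 0.00191).

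Il34, the other ligand of CSF1R, best known from skin keratinocytes and neurons, did not differ detectably. It lay at 7.91, 7.61, 7.62, 7.69 and 8.03 in Exercise arrays 300, 301, 306, 309 and 310, against 7.58, 7.83, 7.64, 7.95 and 7.69 in non-Exercise arrays 326, 327, 329, 330 and 331. The groups overlapped almost completely. The log2 change was 0.03 ± 0.11 (limma adjusted p = 0.901), with a 95% interval of -0.19 to 0.26. The gene was dim, at percentile 20.2 of mean level among all genes, and the table holds no detection call.

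Csf1r, the receptor of both ligands and a marker of the macrophage lineage, was 1.88-fold higher (95% interval 1.28 to 2.74). Its level was 10.58, 9.30, 10.13, 10.89 and 11.02 in Exercise arrays 300, 301, 306, 309 and 310, against 9.38, 9.62, 9.67, 9.07 and 9.64 in non-Exercise arrays 326, 327, 329, 330 and 331. It exceeded the whole non-Exercise range in 4 of 5 Exercise arrays, and array 301 lay below 4 of the 5 non-Exercise arrays. The change was 0.91 ± 0.25 (limma adjusted p = 0.0250), with an SD of 0.70 in the Exercise arrays against 0.25 in the non-Exercise arrays (n = 5 each). The call was lost without Exercise array 300 (0.86), 309 (0.78) or 310 (0.75), without non-Exercise array 326 (0.88) or 330 (0.81), and with robust variances (limma adjusted p = 0.104). The limma adjusted p ran from 0.000319, without Exercise array 301 (change 1.18), to 0.0694 over these leave-one-out fits. Without Exercise arrays 306, 309 and 310 the change was 0.46 (limma adjusted p = 0.285). The exact permutation test of Csf1r alone, over all 10 arrays, gave p = 0.0397, two-sided.

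Csf2, which encodes GM-CSF, a factor made by activated lymphocytes and stroma, had lower values in most Exercise arrays and did not pass. It lay at 8.03, 7.88, 7.76, 7.97 and 7.87 in Exercise arrays 300, 301, 306, 309 and 310, against 8.23, 7.96, 7.98, 8.26 and 8.04 in non-Exercise arrays 326, 327, 329, 330 and 331. Array 300, the highest Exercise array, lay above 2 of the non-Exercise arrays. The change was -0.19 ± 0.09 (limma adjusted p = 0.169; 95% interval -0.38 to -0.00108), and the exact permutation test of this gene alone gave p = 0.0397, two-sided.

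Csf2ra, the ligand-specific chain of the GM-CSF receptor, was 1.41-fold higher (95% interval 1.17 to 1.70). It lay at 9.75, 9.35, 9.57, 10.09 and 10.07 in Exercise arrays 300, 301, 306, 309 and 310, against 9.20, 9.36, 9.35, 9.13 and 9.32 in non-Exercise arrays 326, 327, 329, 330 and 331. As for Csf1r, Exercise array 301 alone fell within the non-Exercise range. The change was 0.49 ± 0.13 (limma adjusted p = 0.0154), and 0.41 to 0.60 leaving out each array in turn (limma adjusted p up to 0.0439). It was 0.28 without Exercise arrays 306, 309 and 310 and did not pass (limma adjusted p = 0.141).

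Csf2rb, the signalling beta chain of the GM-CSF, interleukin-3 and interleukin-5 receptors, had the largest change of the 9 genes, 2.01-fold (95% interval 1.56 to 2.59). It lay at 9.74, 9.41, 9.24, 9.94 and 10.37 in Exercise arrays 300, 301, 306, 309 and 310, against 8.62, 8.85, 8.86, 8.47 and 8.84 in non-Exercise arrays 326, 327, 329, 330 and 331. The lowest Exercise array, 306, was still higher than the highest of the others. The change was 1.01 ± 0.17 (limma adjusted p = 0.00146), and 0.84 without Exercise arrays 306, 309 and 310 (limma adjusted p = 0.00179).

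Csf2rb2, the mouse paralog that pairs with the interleukin-3 alpha chain, was 1.79-fold higher (95% interval 1.37 to 2.33). It lay at 9.62, 8.98, 8.90, 9.65 and 9.98 in Exercise arrays 300, 301, 306, 309 and 310, against 8.55, 8.68, 8.76, 8.30 and 8.64 in non-Exercise arrays 326, 327, 329, 330 and 331. The groups did not overlap, and arrays 301 and 306 were the lowest Exercise arrays for both beta chain genes. The change was 0.84 ± 0.18 (limma adjusted p = 0.00564), and 0.71 without Exercise arrays 306, 309 and 310 (limma adjusted p = 0.0127). Csf2rb and Csf2rb2 are neighbouring genes of closely similar sequence, so probes of either may bind transcripts of both, and separate changes of the paralogs are uncertain here. Their centred levels differed by a root mean square of 0.12 over the 10 arrays, the smallest value of the 36 pairs among the 9 genes.

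Csf3, which encodes G-CSF, did not differ detectably. It lay at 7.47, 7.76, 7.53, 7.52 and 7.41 in Exercise arrays 300, 301, 306, 309 and 310, against 7.51, 7.71, 7.61, 7.65 and 7.64 in non-Exercise arrays 326, 327, 329, 330 and 331. The highest level was in Exercise array 301 and the lowest in Exercise array 310, so the Exercise arrays enclosed the range of the others. The change was -0.08 ± 0.08 (limma adjusted p = 0.593; 95% interval -0.27 to 0.10), at percentile 16.6 of mean level.

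Csf3r, the G-CSF receptor of neutrophils and their precursors, was 1.65-fold higher (95% interval 1.35 to 2.02). It lay at 8.0, 8.09, 8.0, 8.33 and 8.77 in Exercise arrays 300, 301, 306, 309 and 310, against 7.34, 7.56, 7.62, 7.43 and 7.62 in non-Exercise arrays 326, 327, 329, 330 and 331. The groups were separated, and unlike Csf1r and Csf2ra the gene was higher in Exercise array 301 than in any non-Exercise array. The change was 0.72 ± 0.14 (limma adjusted p = 0.00271), and 0.53 without Exercise arrays 306, 309 and 310 (limma adjusted p = 0.0114). Its level was at percentile 23.0, so it was not tested where the dimmest 25% of genes were left out.

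The 6 genes that rose did not order the Exercise arrays alike. Exercise array 310 held the highest level of 4 of them (Csf1r, Csf2rb, Csf2rb2 and Csf3r), and array 309 that of Csf1 and Csf2ra. The lowest Exercise level was in array 306 for Csf2rb, Csf2rb2 and Csf3r, in array 301 for Csf1r and Csf2ra, and in array 300 for Csf1. Among non-Exercise arrays, 330 was the lowest for 5 of the 6 genes and 326 for Csf3r.

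**Figure D2:**
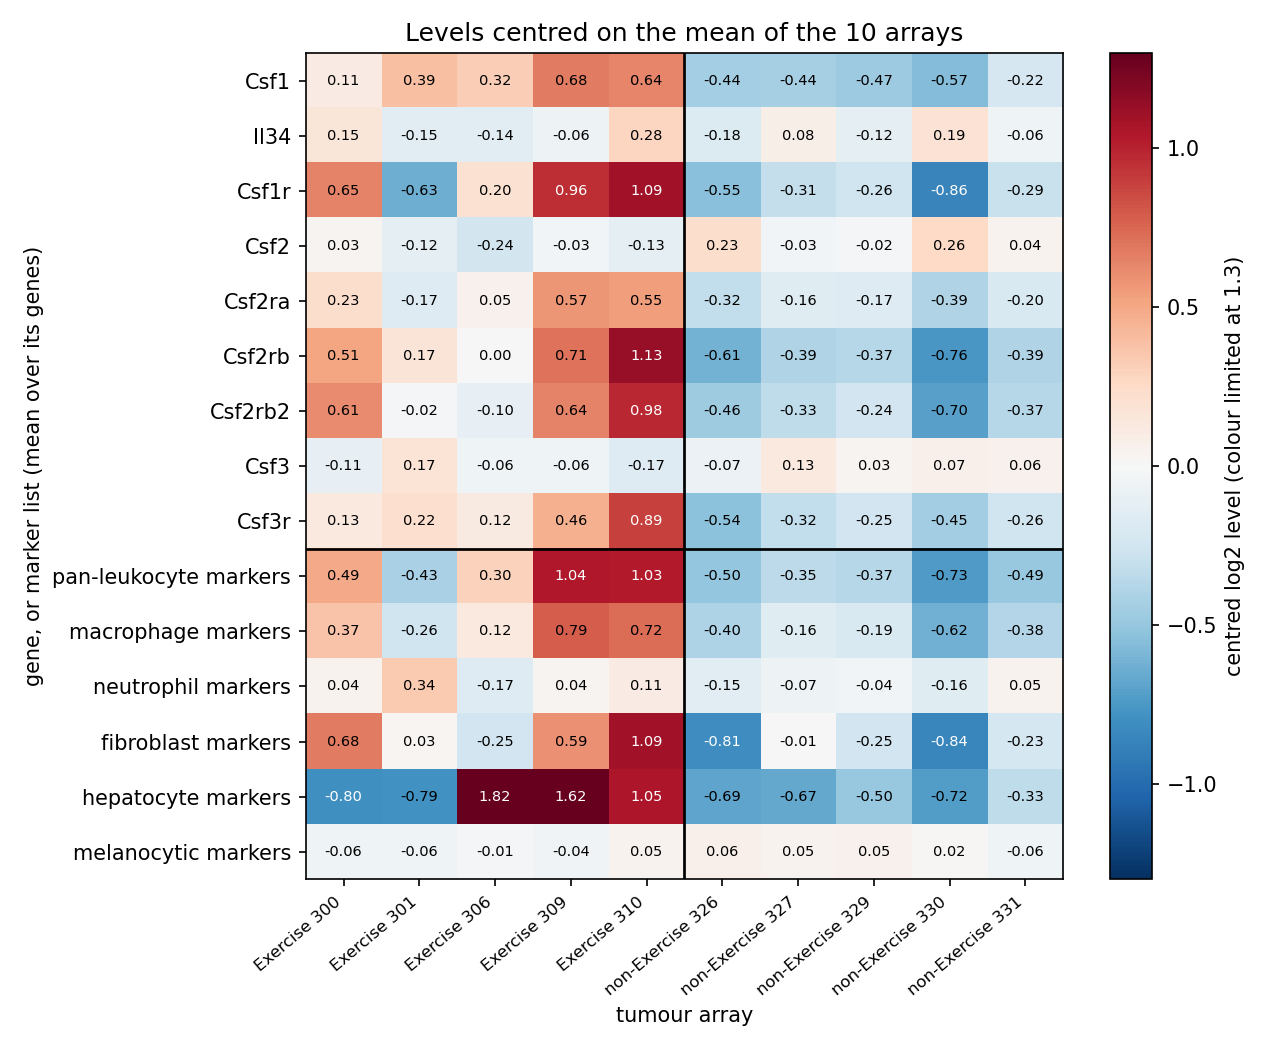
Log2 levels of the 9 genes (top) and mean levels of 6 marker lists (below the line), each centred on its mean over the 10 arrays; columns are the 5 Exercise arrays and then the 5 non-Exercise arrays, and red is above and blue below the mean. In Exercise array 301 the pan-leukocyte list is at -0.43, the macrophage list at -0.26 and the neutrophil list at 0.34. Csf1r, Csf2ra and, slightly, Csf2rb2 are below their means there, while Csf1, Csf2rb and Csf3r are above theirs.

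Most genes of the pan-leukocyte, macrophage and fibroblast lists also rose, and few of the lists for single lymphoid and other myeloid cell types did. Of 7 pan-leukocyte markers 6 rose and none fell, and their mean level lay at 9.39 to 10.86 in Exercise arrays and at 9.09 to 9.47 in non-Exercise arrays. Ptprc, which encodes the common leukocyte antigen CD45, rose by 1.16 ± 0.27 (limma adjusted p = 0.00921), Cd53, a leukocyte tetraspanin, by 1.31 ± 0.20 (limma adjusted p = 0.000666) and Laptm5, a lysosomal protein of blood cells, by 0.79 ± 0.22 (limma adjusted p = 0.0222). Of 15 macrophage markers 10 rose and none fell, at 9.36 to 10.41 in Exercise arrays and 9.0 to 9.47 in non-Exercise arrays, with Lyz2 (lysozyme) at 0.82, Cd68 at 0.76 and the complement gene C1qb at 1.03. Of 8 fibroblast markers 6 rose and none fell, at 9.81 to 11.15 in Exercise arrays and 9.22 to 10.05 in non-Exercise arrays, with the collagen genes Col1a2 and Col3a1 at 1.04 and 1.06 and Dcn (decorin) at 1.16. Laptm5 did not pass when any of Exercise arrays 309 and 310 and non-Exercise array 330 was omitted, and Dcn when any of these or non-Exercise array 326 was. Among the other lists 2 of 6 NK cell markers rose, Klrd1 by 0.65 and Klrk1 by 0.65. So did 1 of 5 B cell markers (Cd79b by 0.35) and 1 of 8 dendritic cell markers (Flt3). The same held for 1 of 8 mast cell and eosinophil markers (Mcpt4 by 0.76) and 1 of 7 endothelial markers (Vwf by 0.55). Of 7 T cell and 7 keratinocyte markers 0 rose, and none of these lists held a gene that fell. Counts higher at an unadjusted limma p under 0.05 were 4 NK cell, 4 dendritic cell and 2 T cell markers. They were 3 for mast cell and eosinophil, 2 for endothelial, 1 for B cell and 0 for keratinocyte markers. Leaving out each array in turn gave 0 to 4 dendritic cell, 0 to 3 T cell and 1 to 3 NK cell markers that rose. Of the B cell markers, Cd79a (-0.22) was lower at an unadjusted limma p under 0.05. Pax5 (-0.17) was lower in every Exercise array than in any non-Exercise array. Neither passed, and 1 B cell marker fell without non-Exercise array 331. Klrk1 lost its call in 8 of the 10 leave-one-out fits, Mcpt4 in 5 and Cd79b in 3. In bulk tumour RNA, more cells of a type and more RNA per cell cannot be told apart.

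Fewer neutrophil and hepatocyte markers passed the test. Of 13 markers of neutrophils, the cells that carry most Csf3r, 2 rose (Mmp8 by 0.44 and Mmp9 by 0.79) and none fell. At an unadjusted limma p under 0.05, 2 were lower. The mean level of the list was 7.67 to 8.18 in Exercise arrays and 7.68 to 7.89 in non-Exercise arrays. The 3 brightest markers, Cxcr1 (0.03), Elane (-0.17) and Camp (0.05), did not pass. Ltf, at -0.55, did not pass either (limma adjusted p = 0.0562). Mmp8 lost its call in 8 of the 10 leave-one-out fits and Mmp9 in 0. Leaving out single arrays gave 3 that rose without Exercise array 306, 2 without non-Exercise array 327 and 1 without any of the other 8, and 4 rose without Exercise arrays 306, 309 and 310 together. In the fits that omitted Exercise array 310, non-Exercise array 326 or non-Exercise array 330, 1 neutrophil marker fell. Of 10 hepatocyte markers none rose or fell at the threshold (8 were higher and 0 lower at an unadjusted limma p under 0.05), with mean levels of 7.22 to 9.84 in Exercise arrays and 7.30 to 7.69 in non-Exercise arrays. Their 3 brightest, Alb (2.61), Apoa1 (1.21) and Apoa2 (0.80), did not pass. The hepatocyte count was 8 without Exercise array 300 or without 301, the arrays of the Exercise group that lacked these transcripts. Without arrays 306, 309 and 310, 1 of the 10 fell, Ahsg, named after its value was seen. Without Exercise arrays 306, 309 and 310 the counts that rose were 2 of 7 pan-leukocyte, 5 of 15 macrophage and 3 of 8 fibroblast markers, and the fibroblast count was 3 to 8 leaving out each array in turn, below 4 without non-Exercise array 326 or 330.

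The levels of the 9 genes were also compared with the mean centred level of a marker list as covariate, which takes out the part of a difference that runs with that list across arrays. With the pan-leukocyte list, 0 of the 9 genes passed, against 66 genes higher and 169 lower among all genes. Then the change of Csf1 was 0.65 (limma adjusted p = 0.0518), that of Csf2rb 0.42, of Csf3r 0.37, of Csf2rb2 0.20, of Csf2ra -0.01 and of Csf1r -0.22. With the fibroblast list Csf1 was the 1 gene that passed (0.71, limma adjusted p = 0.0223), against 162 genes higher and 278 lower among all genes, and Csf1r had a change of 0.16. With the hepatocyte list 4 genes passed, against 628 genes higher and 1472 lower among all genes, and Csf1r (0.59) and Csf2ra (0.34) did not. With the adipocyte list all 6 passed at smaller changes, against 991 genes higher and 1638 lower among all genes. Their changes were then 0.57 for Csf1r, 0.35 for Csf2ra, 0.61 for Csf2rb2, 0.79 for Csf2rb, 0.60 for Csf3r and 0.82 for Csf1. The pan-leukocyte and fibroblast levels were themselves higher in most Exercise arrays, so in these fits the list and the group cannot be told apart. Hepatocyte levels, centred, were 1.05 to 1.82 in Exercise arrays 306, 309 and 310 and -0.72 to -0.33 in the non-Exercise arrays. That covariate therefore also runs partly with the group.

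**Figure D3:**
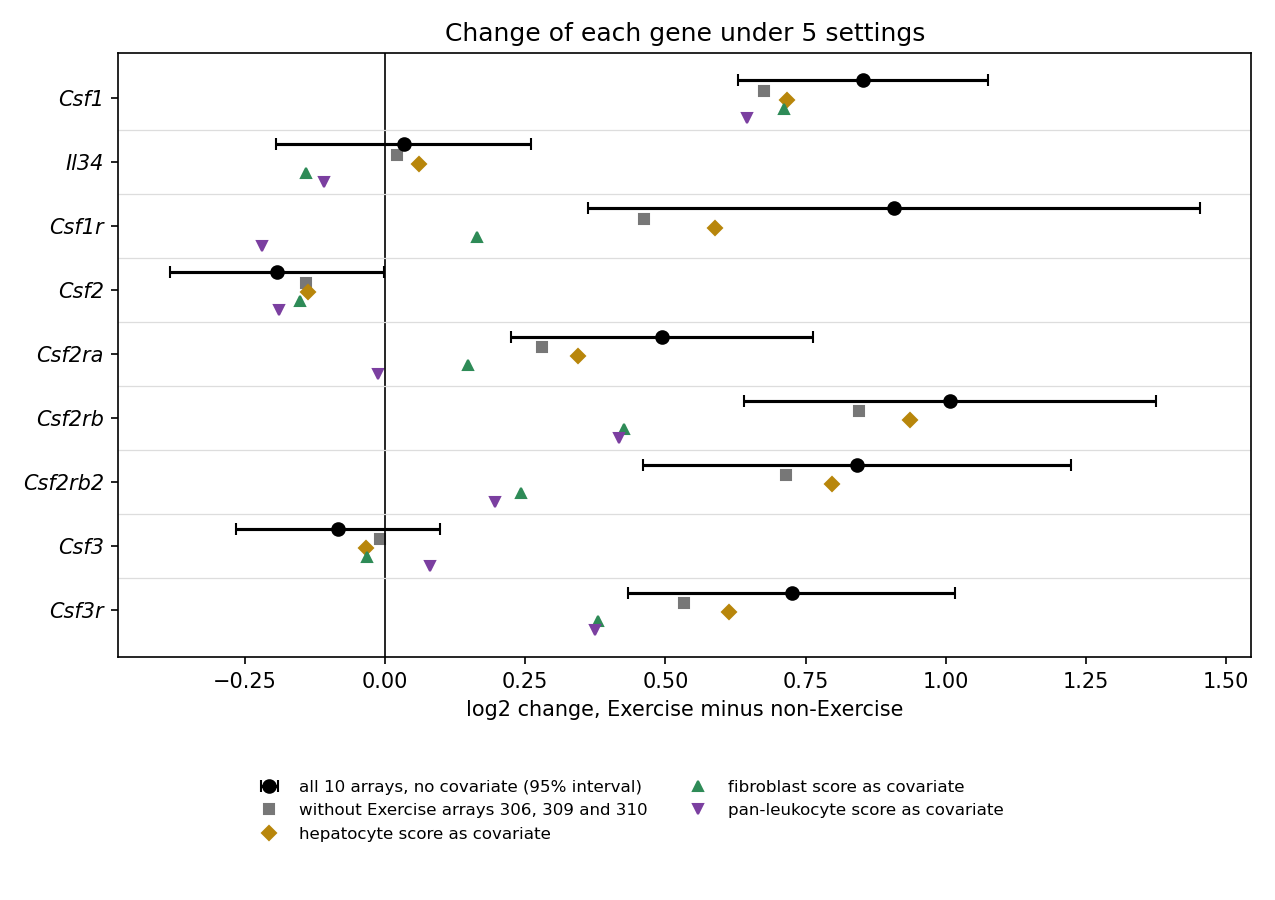
Log2 change (Exercise minus non-Exercise, horizontal axis) of the 9 genes over all 10 arrays with its 95% interval (black), and the change under 4 other settings (coloured symbols). The change of Csf1 is 0.65 to 0.72 under the 4 settings, of which it does not pass with the pan-leukocyte list (limma adjusted p = 0.0518), while Csf1r runs from 0.59 with the hepatocyte list to -0.22 with the pan-leukocyte list as covariate.

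Among the 14 measured genes that relay CSF1R signals, 6 rose, against 6.35% of all genes, and 2 fell, a share near the 10.6% of all genes. Another 6 did not pass. The median log2 change over the 14 was 0.09, against -0.02 over all genes. The 4 with the smallest p were Tyrobp, the adaptor DAP12 of myeloid receptors, which rose by 1.23 ± 0.22 (limma adjusted p = 0.00210), the Src family kinase gene Fgr by 0.71 ± 0.14 (limma adjusted p = 0.00374), Inpp5d, whose lipid phosphatase SHIP1 restrains the signal, by 0.98 ± 0.20 (limma adjusted p = 0.00502), and the exchange factor gene Vav1 by 1.08 ± 0.23 (limma adjusted p = 0.00547). The other genes that rose were the kinase gene Syk (0.80) and Cbl (0.17), whose product marks CSF1R for degradation, and those that fell were the adaptors Grb2 (-0.25) and Dok1 (-0.29). Pik3r1 (0.13) and the phosphatase gene Ptpn6 (-0.10) had the largest changes among those that did not pass. Cbl lost its call without Exercise array 309 and without each of non-Exercise arrays 326, 327 and 329. The count of 2 that fell was 1, without Grb2, when non-Exercise array 327 or 329 was left out, and 3 rose and 3 fell without Exercise arrays 306, 309 and 310, where Vav1 did not pass and Ptpn6 fell.

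The JAK-STAT genes used by the GM-CSF and G-CSF receptors had small changes. Of the 15 on the array 4 rose, against 6.35% of all genes, and 2 fell, a share near the 10.6% of all genes. The other 9 did not pass, and the median over the list was 0.07. Stat3, the main transducer of the G-CSF receptor, rose by 0.35 ± 0.07 (limma adjusted p = 0.00251), and its feedback inhibitor Socs3 by 0.35. The survival genes Bcl2l1 and Mcl1 rose by 0.42 ± 0.07 and 0.30 ± 0.05 (limma adjusted p = 0.00126 and 0.00117). The kinase gene Pim2 fell by 0.41 and Stat5b, a transducer of the GM-CSF receptor, fell by 0.29. Socs1 (0.39) and the receptor kinase gene Jak2 (0.21) did not pass. Without non-Exercise array 326 the count that fell was 1, Stat5b having lost its call, and without Exercise arrays 306, 309 and 310 it was 3. The arrays do not show in which cells these genes changed.

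Among 12 other ligands and receptors of the same families, 2 rose, against 6.35% of all genes, and none fell (1 was lower at an unadjusted limma p under 0.05), against 10.6%. The other 10 did not pass, and the median over the list was 0.17. Flt3, a receptor kinase of dendritic cell precursors related to CSF1R, rose by 0.52 ± 0.14 (limma adjusted p = 0.0232), and Pdgfra, a fibroblast receptor kinase of the same class, by 0.79 ± 0.22 (limma adjusted p = 0.0261). Kitl (0.38), which encodes the ligand of KIT, and Pdgfrb (0.38) did not pass. Among the partners of the beta chains, Il3 (0.06), Il3ra (0.05), Il5 (-0.19) and Il5ra (-0.09) did not pass either. Flt3 lost its call without Exercise array 309 (change 0.41 to 0.64 over all leave-one-out fits) or non-Exercise array 326, 327 or 330, and Pdgfra when Exercise array 300, non-Exercise array 326 or non-Exercise array 330 was omitted (0.56 to 0.92). The count was 0 to 3 over these fits, and 1 without Exercise arrays 306, 309 and 310, namely Pdgfa, a ligand of Pdgfra. Without Exercise array 301, 1 gene of the list fell.

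Of the 4 genes for shedding or alternative binding of CSF1 and IL-34, none rose or fell, with 1 higher at an unadjusted limma p under 0.05. Rhbdf2, a partner of the sheddase ADAM17, differed by 0.23 (limma adjusted p = 0.0537) and passed without Exercise array 300, and Adam17 differed by -0.07 and did not pass. Sdc1 (-0.06) and Ptprz1 (0.02), which encode other surface proteins reported to bind IL-34, did not pass.

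Of 9 measured genes known to induce colony-stimulating factors, 4 rose, against 6.35% of all genes, and 1 fell, a share near 10.6%. The other 4 did not pass, and the median over the list was 0.23. Il33, an alarmin of stromal cells, rose by 1.25 ± 0.29 (limma adjusted p = 0.00979), Il1b, interleukin-1 beta, by 0.97 ± 0.21 (limma adjusted p = 0.00571), Tnf by 0.78 ± 0.23 (limma adjusted p = 0.0293) and Il6 by 0.37 (limma adjusted p = 0.0476). Rela, the p65 subunit of NF-kB, fell by 0.45 (limma adjusted p = 0.000157). Ifng (0.23) and Il1a (0.22) did not pass. Without Exercise arrays 306, 309 and 310 the changes were 1.33 for Il33, 1.25 for Il1b and 0.17 for Tnf, of which Tnf did not pass. Il6 lost its call in 8 of the 10 leave-one-out fits and passed in those that omitted Exercise array 309 or non-Exercise array 329 (0.27 to 0.47 over all 10, limma adjusted p 0.0115 to 0.103). Tnf also lost its call without each of these 3 arrays alone and without non-Exercise array 327, 329, 330 or 331 (0.60 to 1.0 over all leave-one-out fits), and 2 or 3 inducers rose in every leave-one-out fit, with 2 when any of Exercise arrays 306 and 310 and non-Exercise arrays 327, 330 and 331 was omitted.

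Of 12 measured transcription factor genes of the myeloid lineage, 4 rose, against 6.35% of all genes, none fell (also at an unadjusted limma p under 0.05) and 8 did not pass, with a median of 0.26. Runx1 rose by 0.90 ± 0.12 (limma adjusted p = 0.000304), Spi1, which encodes PU.1, by 1.02 ± 0.24 (limma adjusted p = 0.00943), Irf8, a factor of monocytes and dendritic cells, by 1.02 ± 0.30 (limma adjusted p = 0.0308), and Cebpa by 0.54 ± 0.17 (limma adjusted p = 0.0388). Egr2 (0.31) and Cebpb (0.26) did not pass. Without Exercise arrays 306, 309 and 310 Runx1 alone passed (0.89), with Spi1 at 0.48, Cebpa at 0.25 and Irf8 at 0.19. Irf8 and Cebpa each also lost the call in 7 of the 10 leave-one-out fits (changes 0.81 to 1.33 and 0.41 to 0.69), both when Exercise array 309, Exercise array 310, or any of non-Exercise arrays 329, 330 and 331 was omitted. The further omissions that ended the call were Exercise array 306 and non-Exercise array 327 for Irf8, and Exercise array 300 and non-Exercise array 326 for Cebpa. Only 2 of the 12 rose when any of Exercise arrays 309 and 310 and non-Exercise arrays 329 and 330 was omitted.

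The same covariates changed the counts of these lists. With the pan-leukocyte covariate 0 of the 14 CSF1R signalling genes, 0 of the 15 JAK-STAT genes, 0 of the 12 related ligands and receptors, 1 of the 9 inducers and 0 of the 12 transcription factor genes rose. With the fibroblast covariate these counts were 0, 1, 0, 0 and 1 in the same order, with the hepatocyte covariate 2, 3, 1, 3 and 1, and with the adipocyte covariate 5, 4, 3, 2 and 3. Pdgfra, of the related ligands and receptors, is also 1 of the 8 fibroblast markers, so for Pdgfra that covariate contains the gene itself. In both signalling lists 0 genes fell with the pan-leukocyte or fibroblast covariate, 3 with the hepatocyte and 2 with the adipocyte covariate. Of the inducers 1 fell with each of the 4 covariates.

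**Figure D4:**
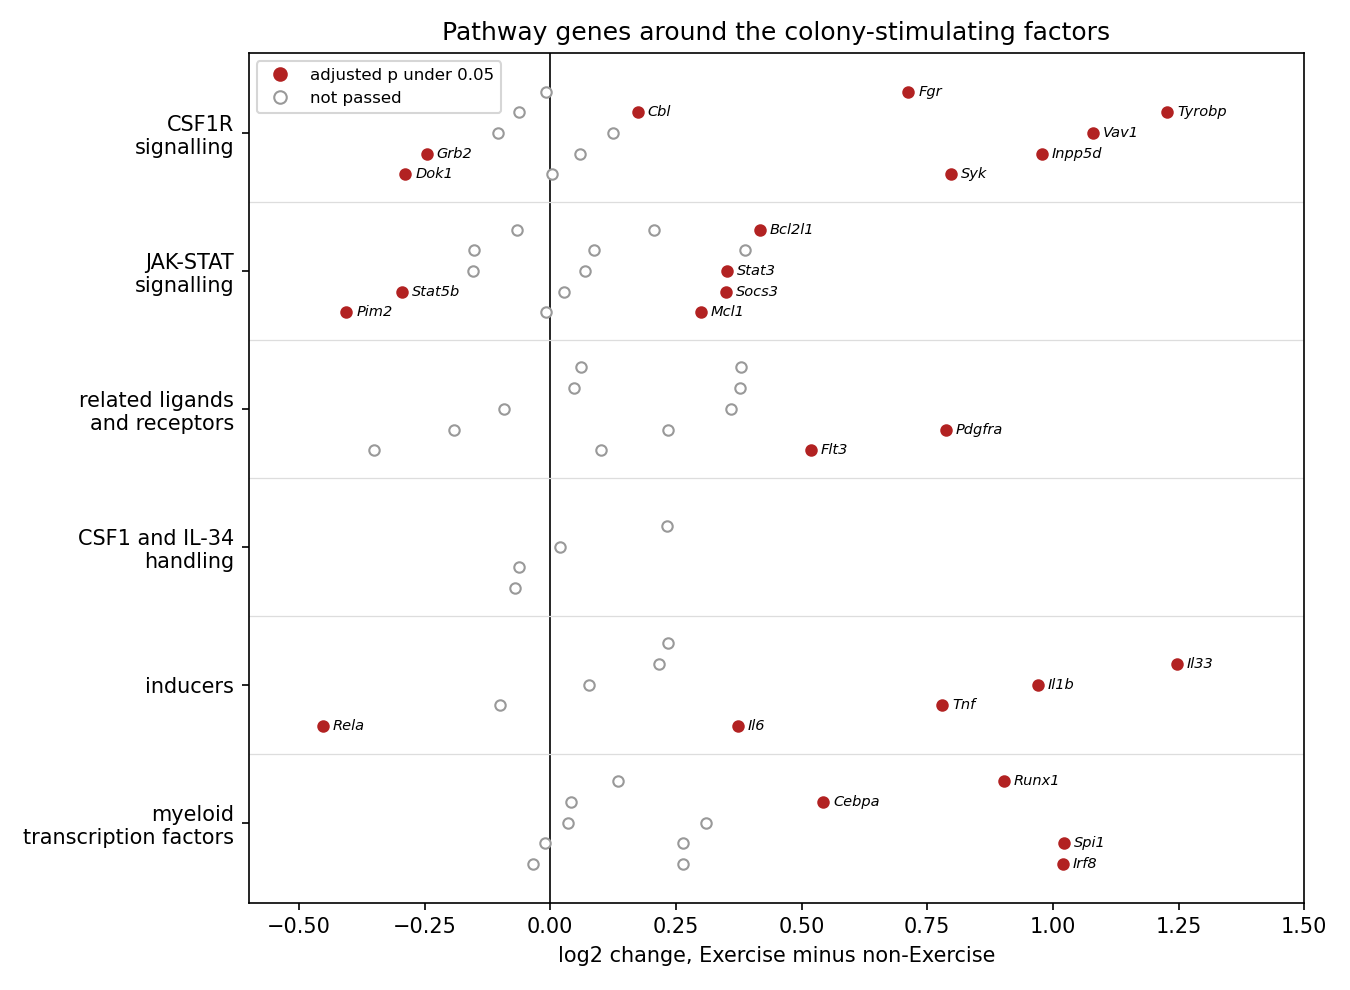
Log2 change (Exercise minus non-Exercise, horizontal axis) of the measured genes of 6 pathway lists, 1 circle per gene, spread vertically within a list only to keep circles apart; filled red circles are named and had a limma adjusted p under 0.05. The CSF1R list, the inducers, the related ligands and receptors and the transcription factors each hold at least 1 gene above 0.70 beside genes below 0. Of the 4 genes for handling of CSF1 and IL-34, 0 passed.

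Genes whose pattern over the 10 arrays was most like that of each gene that rose were taken as the 4 with the smallest root mean square difference of centred log2 levels. For Csf1 they were Snord53, Adamts14, Plau and Efhd2 (0.13 to 0.17, where Csf1 itself varied by 0.46 about its mean). For Csf1r they were Rassf4, Fyb, Dock2 and Pirb (0.09 to 0.12, against 0.65 for Csf1r itself). For Csf2ra they were Gngt2, Myd88, Flt3 and Fes (0.06 to 0.07, against 0.32), and for Csf2rb Tagln2, Ccr1, Alox5ap and Emilin2 (0.07 to 0.13, against 0.59). For Csf2rb2 they were Lyz2, Rgs1, Dab2 and Irak3 (0.09 to 0.12, against 0.53), and for Csf3r Glipr2, Psd4, Sorl1 and Gpr35 (0.11 to 0.14, against 0.42). All of these were higher in Exercise tumours at the threshold. That follows largely from choosing them for likeness, over the same 10 arrays, to genes that rose. No gene was named for more than 1 of the 6.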

How the data were processed

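Total RNA of 10 melanoma tumours was labelled with Affymetrix whole-transcript kits, per the labels' protocols. Per the submitters' processing notes the authors summarised probe sets with PLIER, with no version named. The deposited values range over 4.66 to 14.55 and were read as log2 for that reason; of the log base and of any step between arrays nothing is given in the sources used here. The array medians differed by 0.126, and quantiles were equalised between arrays (limma 3.58.1, R 4.3.3). Of 35556 probe sets 21789 had 1 gene symbol, 1621 had several and 12146 were not listed; 21698 of the first matched an Entrez identifier of GRCm38.p6, used for names. Where a gene had several (999 genes), its probe set of highest overall mean stood for it.

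Groups were compared by limma (lmFit, then eBayes with trend; two-sided tests), with Benjamini-Hochberg adjustment over 19938 genes at 0.05. Single genes were also tested by exact permutation over 252 splits of the arrays. The fit was tested on simulated data. The members and lists were chosen with earlier results of these data known. Named were all members. Each pathway list gave up to 4 genes with the smallest p past the threshold and up to 2 others with the largest change. Also named were up to 3 of the brightest genes of a marker list. So were the 4 genes most like each member that rose, passing over members, predicted genes, clones and olfactory receptors. Syk, Cbl, Grb2, Dok1, Socs3, Stat5b, Il6, Sdc1, Ptprz1, Il3, Il3ra, Il5, Il5ra and Pdgfa were added after their values were seen. The same holds for Ahsg, Klrd1, Klrk1, Cd79a, Cd79b, Pax5, Mcpt4, Vwf, Ltf, Mmp8 and Mmp9. Alternatives covered normalization, dim genes, probe sets, variance model, array weights, threshold, single arrays, the 3 arrays with hepatocyte transcripts and marker covariates. The pan-leukocyte and fibroblast covariates were added after seeing the data. No scan date or slide was given, so no batch was tested. Promoter sequences are from RefSeq, build GRCm38.p6.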

Additional observations from a re-analysis of the deposited data

Results flagged for a closer look

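For 46 of the genes, the highest and lowest array of each group of 5 were compared with the rest of the group, 92 groups in all, and 3 stood apart by Dixon's criterion, where chance gives about 1 group in 20. Xist was at 7.20 in Exercise array 301, far below the other Exercise arrays. Ptpn6 was at 10.37 in non-Exercise array 331, and Rhbdf2 at 8.92 in non-Exercise array 329, each lower than the other non-Exercise arrays. None of the 9 colony-stimulating factor and receptor genes had such an array.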

How the results depend on the processing

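No paired analysis was possible because the groups share no replicate number in the labels. The 6 genes that rose all passed in the table as deposited, with arrays centred on their medians, with the mean of probe sets, without the intensity trend, with array weights and with the adipocyte covariate. The count was 5 with robust variances (without Csf1r) and without dim genes (Csf3r not tested), 5 to 6 leaving out each array, 4 without Exercise arrays 306, 309 and 310 and with the hepatocyte covariate, 1 with the fibroblast covariate and 0 with the pan-leukocyte covariate; 0 fell in each of these. Genes higher among all genes numbered 1266, and 746 without Exercise arrays 306, 309 and 310, 628 with the hepatocyte, 66 with the pan-leukocyte and 162 with the fibroblast covariate (857 to 1528 leaving out each array). Those lower numbered 2118, and 169 and 278 with the pan-leukocyte and fibroblast covariates (1435 to 2333 leaving out each array). Higher genes made up 37.4% of all calls, against 23.4% with median centring. None of the changes of sign listed next was of a gene past the threshold in that fit. With the pan-leukocyte covariate the sign turned for Csf1r (-0.22), Csf2ra (-0.013), Csf3 (0.080), Il34 (-0.11), Pik3r1 (-0.052), Socs1 (-0.040), Flt3 (-0.043), Kitl (-0.35), Pdgfrb (-0.13), Tnf (-0.11), Spi1 (-0.025) and Cebpa (-0.12), with the fibroblast covariate for Il34 (-0.14), Pik3r1 (-0.0091), Kitl (-0.25) and Pdgfrb (-0.023), with the hepatocyte covariate for Ifng (-0.0063), with the adipocyte covariate for Il34 (-0.038), and without Exercise arrays 306, 309 and 310 for Socs1 (-0.058) and Ifng (-0.051). Il34 ran from -0.032 to 0.085 leaving out each array, negative without Exercise array 300 (-0.00133), 310 (-0.032) or non-Exercise array 326 (-0.00679). The cause was not tested. The table has no signal over background, so which dim genes were measured is not known.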
